A study of Macaca mulatta with 10 samples.

Results

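Transcripts of calbindin (CALB1), calretinin (CALB2) and parvalbumin (PVALB) were compared among 5 nuclei of the thalamus, punched from brains of adult rhesus monkeys (Macaca mulatta) that received no treatment. Every probe set that the array annotation assigned to exactly 1 of the 3 symbols was taken, which gave 3 of the 11963 genes so assigned and 4 of the 22283 probe sets on the array: 205336_at for PVALB, 205428_s_at for CALB2, and 205625_s_at and 205626_s_at for CALB1. The punches came from Ventral Thalamus, Centre Median, Pulvinar, Anterior Thalamus and Medial Thalamus, with 2 arrays of each nucleus numbered as replicates 1 and 2 and 10 arrays in all. The labels give no number of animals, so the p-values measure only the spread between these arrays. Total RNA was hybridised to an Affymetrix human expression array, whose short probes were designed for human transcripts, and a probe that matches its rhesus target poorly can read low without the transcript being rare. RefSeq lists each of the 3 symbols as 1 protein-coding gene of the rhesus assembly T2T-MMU8v2.0.

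The 3 proteins bind calcium through EF-hand motifs and buffer it inside neurons, and they are the standard markers that divide primate thalamic relay neurons into classes. Parvalbumin marks core relay neurons, which project in topographic order to the middle layers of the cortex and are dense in sensory and motor relay nuclei. Calbindin marks matrix neurons, which are spread across all nuclei and project more diffusely to superficial cortical layers. Calretinin marks neurons of the midline and intralaminar nuclei and some interneurons. Parvalbumin is also made by the GABA neurons of the reticular nucleus, a shell around the dorsal thalamus.

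The arrays fell into sets before any difference among nuclei was considered. The 10 correlations between nuclei of the change from replicate 1 to replicate 2, across probe sets, were 0.75 to 0.828, so arrays of the same replicate number shared a shift. The labels do not say whether they came from the same animal. Without the replicate number as a block, limma called 0 members in the F test, against the rest or among pairs, each at an adjusted p that rounds to 1.00, and 0 genes of the lists described below against the rest. The values that follow are from the fit with that block unless another fit is named. Within replicate 1, XIST, the RNA of the inactive X chromosome, read above RPS4Y1, a Y-linked ribosomal protein gene, on the 2 arrays of Centre Median and Pulvinar, and below it on the 3 arrays of Ventral, Anterior and Medial Thalamus. XIST read 8.96 and 9.60 on those 2 arrays, 6.70 to 7.22 on the other 3 and 9.86 to 10.34 on the replicate 2 arrays, on the scale of log2(intensity + 1). A further fit therefore used a block of 3 levels: replicate 2, and the 2 parts of replicate 1. The actin control's log2 3′ minus 5′ signal, which rises when RNA is degraded or copied short, lay between 1.15 and 1.64 in replicate 2, against -0.09 to 1.22 in replicate 1, with the Ventral Thalamus array highest in each set. Of 7 measured thalamic neuron markers, 4 had means above the median of all probe sets, 6.64, in every nucleus. They were TCF7L2, a transcription factor of thalamic neurons (12.23 to 12.70), SLC17A6, the vesicular glutamate transporter of relay neurons (10.44 to 11.20), SHOX2 (8.67 to 9.72) and RORA (7.59 to 8.27). LHX2 (6.16 to 6.46), GBX2 (5.00 to 5.94) and PRKCD (5.91 to 6.10) lay below that median in every nucleus.

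**Figure D1:**
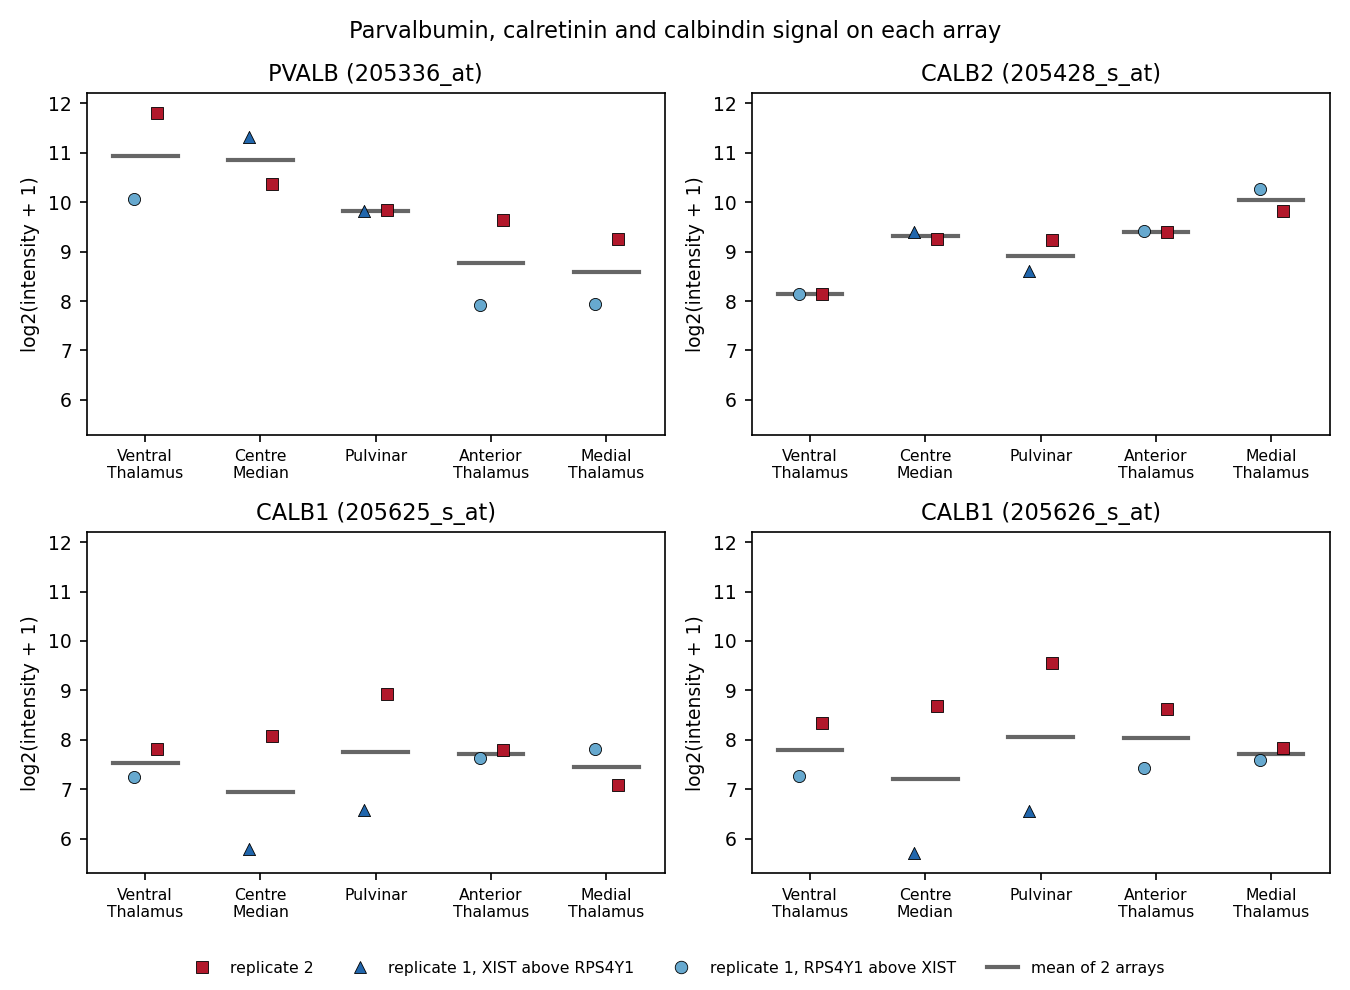
Signal of the 4 probe sets on each array as log2(intensity + 1), by nucleus; symbols give the replicate number and the part of replicate 1, and grey bars the mean of 2 arrays. CALB2 arrays of a nucleus lie close together in Ventral Thalamus, Centre Median and Anterior Thalamus and less so in Pulvinar and Medial Thalamus. PVALB falls from left to right, with arrays of a nucleus far apart except in Pulvinar. CALB1 is lowest on the replicate 1 arrays of Centre Median and Pulvinar.

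Calretinin showed the clearest difference among nuclei, being lowest in Ventral Thalamus and highest in Medial Thalamus. CALB2 read 8.15 and 8.14 on the log2 scale in Ventral Thalamus, which is an intensity of 283 and 281. In Centre Median it read 9.39 and 9.25, in Pulvinar 8.60 and 9.24, in Anterior Thalamus 9.43 and 9.39, and in Medial Thalamus 10.28 and 9.83, the last being intensities of 1238 and 910. Both Ventral Thalamus arrays lay below the other 8, which held for 1.13% of the 22215 probe sets tested, and both Medial Thalamus arrays lay above the other 8, which held for 0.918%. The 6 arrays of Centre Median, Pulvinar and Anterior Thalamus lay between 8.60 and 9.43. In punched tissue, fewer calretinin neurons and less calretinin RNA per neuron cannot be told apart, and this holds for each gene below.

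The 5 means of CALB2 spanned 1.91 log2 units, a 3.76-fold range that exceeded the span of 99.94% of probe sets, whose median span was 0.22. The residual SD among arrays of a nucleus was 0.25 without the block and 0.28 with it, so the block did not lower it for CALB2. Over all probe sets the median residual SD was 0.21 without the block and 0.12 with it. limma bases each SE partly on the spread of all probe sets. In limma's F test across nuclei in the unblocked fit CALB2 reached an adjusted p = 1.00 (0.000788 before adjustment). That fit called 0% of probe sets, with 133 at an unadjusted p under 0.05. With the replicate block the adjusted p = 0.0111, and CALB2 ranked 16 among all probe sets, of which 0.23% were called. Replicate 2 exceeded replicate 1 by 0.0031 log2 units in CALB2 over the 5 nuclei (SE 0.128, adjusted p = 0.986). The blocked call was lost without Ventral Thalamus replicate 1 (adjusted p = 0.0667), Ventral Thalamus replicate 2 (0.0839) or Anterior Thalamus replicate 1 (0.0503); in such fits the lone array of a nucleus is assumed to vary like the others. It was also lost with the actin 3′ minus 5′ signal as a covariate (adjusted p = 0.172).

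Ventral Thalamus averaged 8.14 ± 0.01 (SD, n = 2) in CALB2, against 9.43 as the mean of the other 4 nuclei. The log2 difference of -1.28 is a 2.43-fold lower signal (SE 0.160 and adjusted p = 0.0068 by limma with the block, in a comparison where 0.333% of probe sets were called). Within the replicate sets the difference was -1.27 in replicate 1 and -1.29 in replicate 2. Without Ventral Thalamus replicate 1 or replicate 2 it stood at -1.29 or -1.27 and was not called (adjusted p = 0.0725 and 0.1). With the actin 3′ minus 5′ signal as a covariate beside the block it was -1.06 (SE 0.292, adjusted p = 0.322).

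Medial Thalamus averaged 10.05 ± 0.31 (SD, n = 2) in CALB2, against 8.95 in the other 4 nuclei, a 2.15-fold higher signal. The log2 difference was 1.10 (SE 0.160, adjusted p = 0.0213 by limma with the block, where 0.113% of probe sets were called), and it was 1.38 in replicate 1 and 0.83 in replicate 2. The call was lost without Medial Thalamus replicate 1 (0.83, adjusted p = 0.186), and also without either Centre Median or either Anterior Thalamus array, where the adjusted p was 0.0522 to 0.0762. It was lost as well with the actin covariate (0.99, SE 0.206, adjusted p = 0.0953). Medial Thalamus replicate 2 stood apart in choroid plexus markers: TTR, the transthyretin of choroid plexus, read 12.19 there and 7.17 to 8.41 on the other 9 arrays. The summed intensity of the 5 measured choroid plexus genes was 1050 and 6366 in Medial Thalamus, against 1127 to 2000 in the other nuclei. Without that array the CALB2 difference was 1.38 and was called (adjusted p = 0.0129).

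Of the 10 direct pairs of nuclei, limma with the block called CALB2 in 2. Ventral Thalamus was 3.76-fold lower than Medial Thalamus, at 8.14 against 10.05 (log2 difference -1.91, SE 0.202, adjusted p = 0.00182), in a pair where 0.734% of probe sets were called, and this call held in 10 of 10 fits that left out 1 array but not with the actin covariate (-1.64, SE 0.362, adjusted p = 0.126). Ventral Thalamus was 2.26-fold lower than Centre Median, at 8.14 against 9.32 (-1.18, SE 0.202, adjusted p = 0.0369), where 0.23% were called, and this call held in 4 of the 10. It was lost without either array of Ventral Thalamus, Centre Median or Anterior Thalamus, at adjusted p of 0.0688 to 0.375, and with the actin covariate (-0.97, adjusted p = 0.36). Ventral minus Anterior Thalamus was of like size at -1.26 and missed the threshold (adjusted p = 0.0961), but was called at 0.0272 to 0.0312 without either array of Pulvinar or Medial Thalamus. Pulvinar minus Medial Thalamus was -1.13 (adjusted p = 0.0693), called without Pulvinar replicate 2 (0.0256) or Medial Thalamus replicate 2 (0.0247). The neighbours in the order below Medial Thalamus were not resolved: Centre Median minus Anterior Thalamus was -0.09 with a 95% interval of -0.52 to 0.35, and Centre Median minus Pulvinar 0.40 with an interval of -0.04 to 0.84.

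Parvalbumin ran in nearly the opposite order and had the widest range of the 3 genes. Except in Pulvinar, its 2 arrays of a nucleus differed by far more than those of CALB2. PVALB read 10.07 and 11.80 in Ventral Thalamus, 11.32 and 10.38 in Centre Median and 9.82 and 9.84 in Pulvinar. It read 7.91 and 9.64 in Anterior Thalamus and 7.94 and 9.25 in Medial Thalamus. In intensity the lowest array was Anterior Thalamus replicate 1 at 240 and the highest was Ventral Thalamus replicate 2 at 3558. All 6 arrays of Ventral Thalamus, Centre Median and Pulvinar lay above all 4 arrays of Anterior and Medial Thalamus, the closest being 9.82 against 9.64. This grouping was read from the values themselves, and the share of all probe sets that part in this way was not counted. No single nucleus stood clear of the other 8 arrays.

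The PVALB means were 10.93 ± 1.22, 10.85 ± 0.67, 9.83 ± 0.01, 8.78 ± 1.22 and 8.60 ± 0.92 in the order just given (SD, n = 2 each). Their span of 2.34 log2 units, or 5.05-fold, exceeded that of 99.98% of probe sets. Against it stood a residual SD of 0.93 without the block and 0.84 with it. PVALB was called in neither fit by limma's F test: its p before adjustment was 0.0383 for the unblocked and 0.000664 for the blocked fit, and the adjusted p 1.00 and 0.108. The Centre Median arrays decided several blocked results. Without Centre Median replicate 2, PVALB was called in the F test (adjusted p = 0.0187), in Centre Median against the rest (2.38, adjusted p = 0.0461) and in Medial Thalamus against the rest (-1.77, adjusted p = 0.0393). It was then called as well in Centre Median minus Anterior Thalamus (3.14, adjusted p = 0.0215) and Centre Median minus Medial Thalamus (3.32, adjusted p = 0.0178). Without Centre Median replicate 1 it was called in Ventral Thalamus against the rest (1.69, adjusted p = 0.0446). Ventral minus Medial Thalamus was called without Centre Median replicate 1 (adjusted p = 0.0179), Centre Median replicate 2 (0.0187) or Medial Thalamus replicate 2 (0.0499).

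The 2 arrays of a nucleus differed unevenly. Replicate 2 minus replicate 1 was 1.73 in Ventral Thalamus, 1.73 in Anterior Thalamus and 1.30 in Medial Thalamus, 0.02 in Pulvinar and -0.94 in Centre Median. The 3 nuclei with the large positive values are those whose replicate 1 array read RPS4Y1 above XIST. Among the replicate 1 arrays, PVALB averaged 1.93 log2 units higher on the 2 arrays with XIST above RPS4Y1 than on the other 3, and the nuclei of the 2 parts are different, so part and nucleus cannot be told apart within replicate 1.

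With the block of 3 levels, which leaves 3 residual degrees of freedom, PVALB was called. limma's F test then gave an adjusted p = 0.00136, with 0.392% of all probe sets called, and CALB2 remained called at 0.00443. Ventral Thalamus exceeded the other 4 nuclei by 1.93 (SE 0.175, adjusted p = 0.000765, 0.554% called), against 1.42 with the replicate block (SE 0.388, adjusted p = 0.172). Within the replicate sets this difference was 0.82 in replicate 1 and 2.02 in replicate 2. It averages over Centre Median and Pulvinar, which with 3 levels are linked to Ventral Thalamus only through replicate 2. Ventral minus Medial Thalamus was 2.34 in both fits (adjusted p = 0.000309 with 3 levels, 1.11% called, and 0.0515 with the replicate block). Ventral minus Anterior Thalamus was 2.15 in both (0.0014, with 0.0675% called, and 0.209). These last pairs need no link between the parts of replicate 1, and within each replicate set Ventral minus Anterior Thalamus was 2.16 and 2.15, and Ventral minus Medial Thalamus 2.12 and 2.55. With the actin covariate beside the replicate block, limma's F test did not call PVALB (adjusted p = 0.223). Ventral Thalamus minus the rest was then 1.13 (SE 0.701, adjusted p = 0.74). Ventral minus Medial Thalamus was 1.98 (SE 0.869, adjusted p = 0.664) and Ventral minus Anterior Thalamus 1.90 (SE 0.699, adjusted p = 0.561).

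Centre Median and Pulvinar depended on how the sets were treated. Ventral minus Pulvinar was 2.13 with 3 levels (adjusted p = 0.0114, 0.0675% called) and 1.10 with the replicate block (0.914). Within the replicate sets it was 0.25 in replicate 1 and 1.96 in replicate 2. With 3 levels the replicate 1 arrays of Centre Median and Pulvinar share no level with that of Ventral Thalamus. Only replicate 2, with 1 array of each nucleus, then links them to it. Centre Median minus the other nuclei was 0.55 with 3 levels (adjusted p = 0.62) and 1.32 with the replicate block (0.451), and it was 2.38 within replicate 1 and 0.25 within replicate 2. Ventral minus Centre Median was -1.25 in replicate 1 and 1.42 in replicate 2, so the order of the top 2 nuclei turned between sets. CALB2 was called with 3 levels in Ventral Thalamus against the rest (-1.39, adjusted p = 0.0019), in Medial Thalamus against the rest (1.00, adjusted p = 0.0391, 0.126% called) and in Ventral Thalamus against Centre Median (-1.39, adjusted p = 0.0225, 0.212% called). It was called as well in Ventral against Anterior Thalamus (-1.26, adjusted p = 0.027) and Ventral against Medial Thalamus (-1.91, adjusted p = 0.000498).

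**Figure D2:**
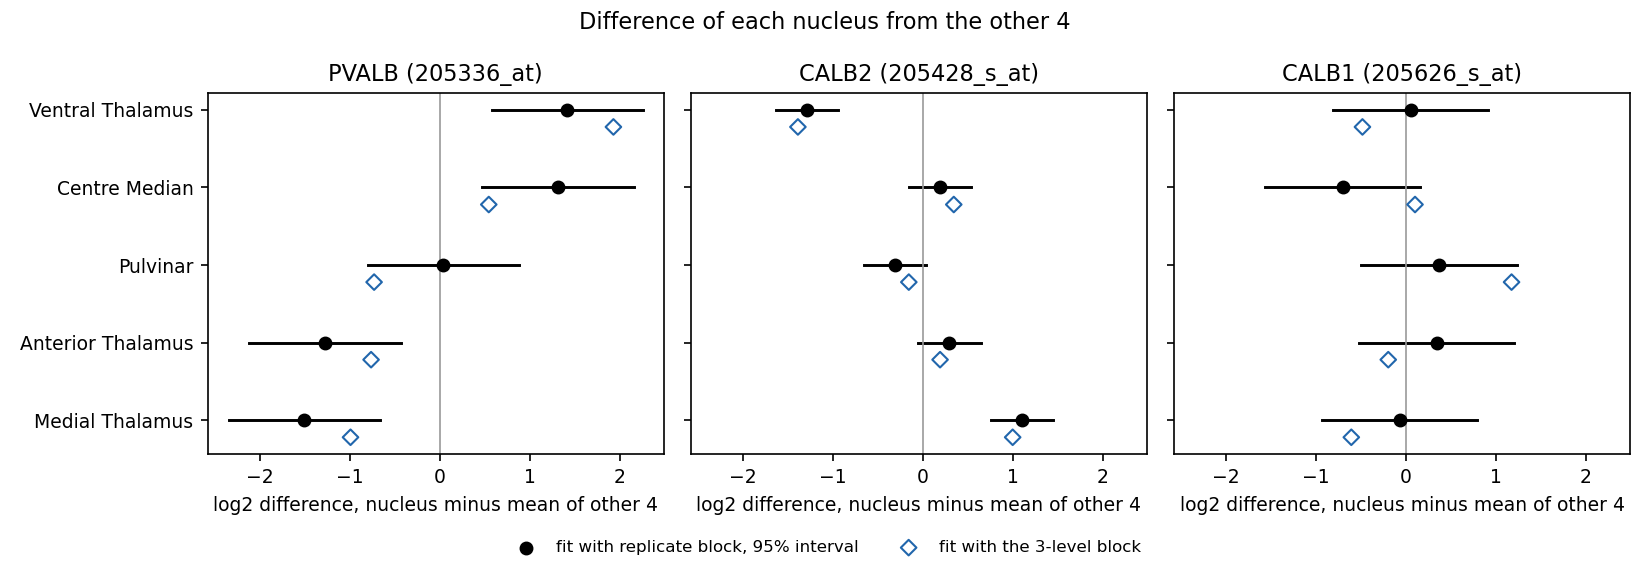
Log2 difference of each nucleus from the mean of the other 4 for PVALB, CALB2 and CALB1 (205626_s_at); black points and lines are the fit with the replicate block and its 95% interval, and open diamonds the fit with 3 levels. For CALB2 the intervals of Ventral Thalamus, from -1.63 to -0.94, and Medial Thalamus, from 0.76 to 1.45, stay clear of 0; for CALB1 all 5 intervals cross 0.

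Calbindin followed the replicate sets more than the nuclei. The probe set 205626_s_at read 7.26 and 8.35 in Ventral Thalamus, 5.71 and 8.69 in Centre Median, 6.56 and 9.55 in Pulvinar, 7.44 and 8.63 in Anterior Thalamus and 7.58 and 7.83 in Medial Thalamus. Replicate 2 exceeded replicate 1 in all 5 nuclei, by 0.24 to 2.99. The other probe set, 205625_s_at, read 7.24 and 7.82, 5.79 and 8.08, 6.57 and 8.92, 7.62 and 7.80, and 7.81 and 7.08 in the same order of nuclei. It was higher in replicate 2 in 4 of 5 nuclei and lower in Medial Thalamus.

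The shift between sets was 1.70 log2 units for 205626_s_at, or 3.24-fold (SE 0.319, adjusted p = 0.000759 by limma), and 0.93 for 205625_s_at (SE 0.348, adjusted p = 0.0378). Of all probe sets, 23.4% were called higher in replicate 2, but the shift of 205626_s_at exceeded that of 99.7% of them in size. PVALB shifted by 0.77 (SE 0.310, adjusted p = 0.0523). The lowest 2 arrays of both CALB1 probe sets were the replicate 1 arrays of Centre Median and Pulvinar, the same 2 on which XIST read above RPS4Y1. They averaged 1.29 log2 units below the other 3 replicate 1 arrays in 205626_s_at and 1.37 below in 205625_s_at.

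Among nuclei, the CALB1 means spanned 0.86 log2 units in 205626_s_at and 0.81 in 205625_s_at. These spans exceeded those of 98.82% and 98.55% of probe sets. The residual SDs were 1.43 and 1.08 without the block and 0.87 and 0.96 with it, so neither probe set's span exceeded its residual SD. The order was Pulvinar, Anterior Thalamus, Ventral Thalamus, Medial Thalamus and Centre Median in both, with means of 8.06 ± 2.11, 8.03 ± 0.84, 7.80 ± 0.77, 7.70 ± 0.17 and 7.20 ± 2.11 in 205626_s_at (SD, n = 2 each). limma's F test called neither, at an adjusted p = 1.00 in the unblocked fit and, in the blocked fit, 0.919 for 205626_s_at and 0.952 for 205625_s_at. The fit with 3 levels gave 0.0637 and 0.127. In that fit Pulvinar exceeded the other nuclei by 1.18 in 205626_s_at (SE 0.178, adjusted p = 0.0692) and 1.21 in 205625_s_at (SE 0.209, adjusted p = 0.161). With the replicate block the Pulvinar difference in 205626_s_at was 0.37, with a 95% interval of -0.49 to 1.24. Within the replicate sets it was -0.43 in replicate 1 and 1.18 in replicate 2. With 3 levels only replicate 2, with 1 array of each nucleus, links Pulvinar to Ventral, Anterior and Medial Thalamus.

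The 2 probe sets of CALB1 followed each other across nuclei and parted between the replicate sets. After the mean of each replicate number was subtracted, their correlation over the 10 arrays was 0.99, both being read from the same arrays. The log2 difference of 205626_s_at minus 205625_s_at lay between 0.53 and 0.82 in replicate 2, against -0.23 to 0.02 in replicate 1, without overlap over 5 arrays each, while its nucleus means differed by at most 0.06. The actin 3′ minus 5′ signal moved between the sets in the same direction, and its part in the difference between the probe sets was not tested. Once the actin signal entered the blocked fit, Ventral Thalamus minus the rest was 1.27 in 205625_s_at (SE 0.686, adjusted p = 0.7), against 0.07 without the covariate, and 0.95 in 205626_s_at (SE 0.664, adjusted p = 0.774), against 0.06. Medial Thalamus minus the rest was -0.68 and -0.55 with the covariate, against -0.04 and -0.07 without it, and 0 of the CALB1 comparisons were called by limma in either fit.

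**Figure D3:**
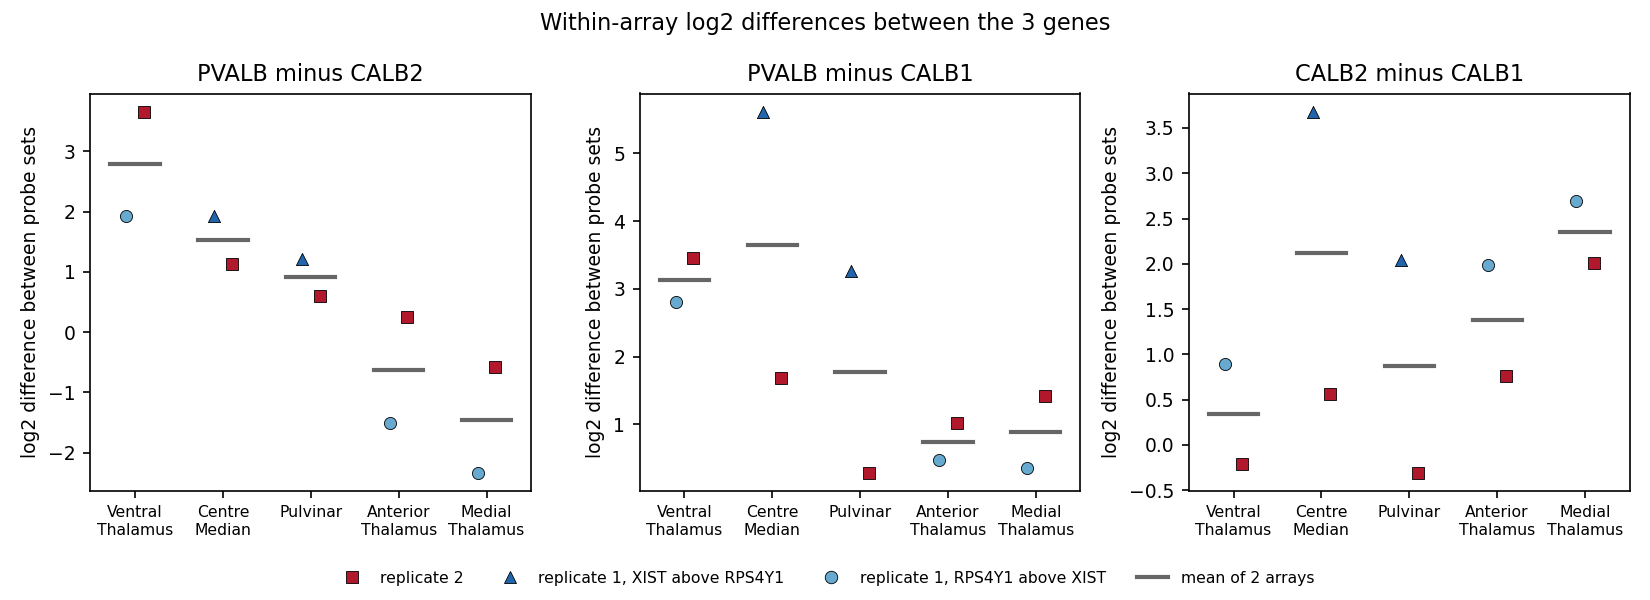
Log2 difference between the probe sets of 2 genes on the same array, by nucleus; symbols as in the plot of the single probe sets and grey bars are means of 2 arrays. PVALB minus CALB2 runs downward from Ventral to Medial Thalamus. The 6 arrays of the first 3 nuclei lie above the 4 others, a grouping read from these values. The differences that contain CALB1 (205626_s_at) overlap widely.

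Ratios within an array remove whatever scales all probe sets of that array, but each carries an unknown constant for the probes, so only their variation across arrays is read. The log2 difference PVALB minus CALB2 was 1.92 and 3.66 in Ventral Thalamus, 1.93 and 1.13 in Centre Median and 1.22 and 0.60 in Pulvinar. It was -1.51 and 0.26 in Anterior Thalamus and -2.33 and -0.58 in Medial Thalamus. All 6 arrays of the first 3 nuclei thus lay above all 4 of the last 2, a grouping again read from the values and not tested. Within each replicate set Medial Thalamus was lowest and Anterior Thalamus next. The nucleus means spanned 4.25 log2 units, an 18.99-fold range in the ratio of parvalbumin to calretinin signal. The residual SD was 1.01, or 0.96 once the mean of each replicate number was subtracted. With 1 array left out, the span fell to 3.38 (Ventral Thalamus replicate 2 left out) or 3.42 (Medial Thalamus replicate 1) and grew to 5.12 (Ventral Thalamus replicate 1, or Medial Thalamus replicate 2). The span exceeded that of either gene alone, as the orders of the 2 genes were nearly opposite.

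PVALB minus CALB1 (205626_s_at), the contrast of core against matrix marker, was 2.81 and 3.45 in Ventral Thalamus, 5.61 and 1.69 in Centre Median and 3.26 and 0.29 in Pulvinar. It was 0.47 and 1.02 in Anterior Thalamus and 0.36 and 1.42 in Medial Thalamus. The nucleus means spanned 2.91, against a residual SD of 1.61, or 1.65 once the mean of each replicate number was subtracted. The highest and the lowest of all 10 values belonged to Centre Median replicate 1 and Pulvinar replicate 2. With 205625_s_at the highest was again Centre Median replicate 1 (5.53), but the lowest was Medial Thalamus replicate 1 (0.14). Without Centre Median replicate 2 the span was 4.87. Ventral Thalamus exceeded Anterior and Medial Thalamus within both sets. CALB2 minus CALB1 (205626_s_at) was 2.69 and 2.01 in Medial Thalamus and 0.89 and -0.21 in Ventral Thalamus, with 3.68 and 0.56 in Centre Median, 2.04 and -0.31 in Pulvinar and 1.99 and 0.76 in Anterior Thalamus. Its means spanned 2.01, against a residual SD of 1.36 that fell to 0.71 once the mean of each replicate number was subtracted. With 205625_s_at that SD was 0.96 and fell to 0.79. The span was 3.34 without Centre Median replicate 2, 2.66 without Pulvinar replicate 1 and 1.48 without Ventral Thalamus replicate 2.

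**Figure D4:**
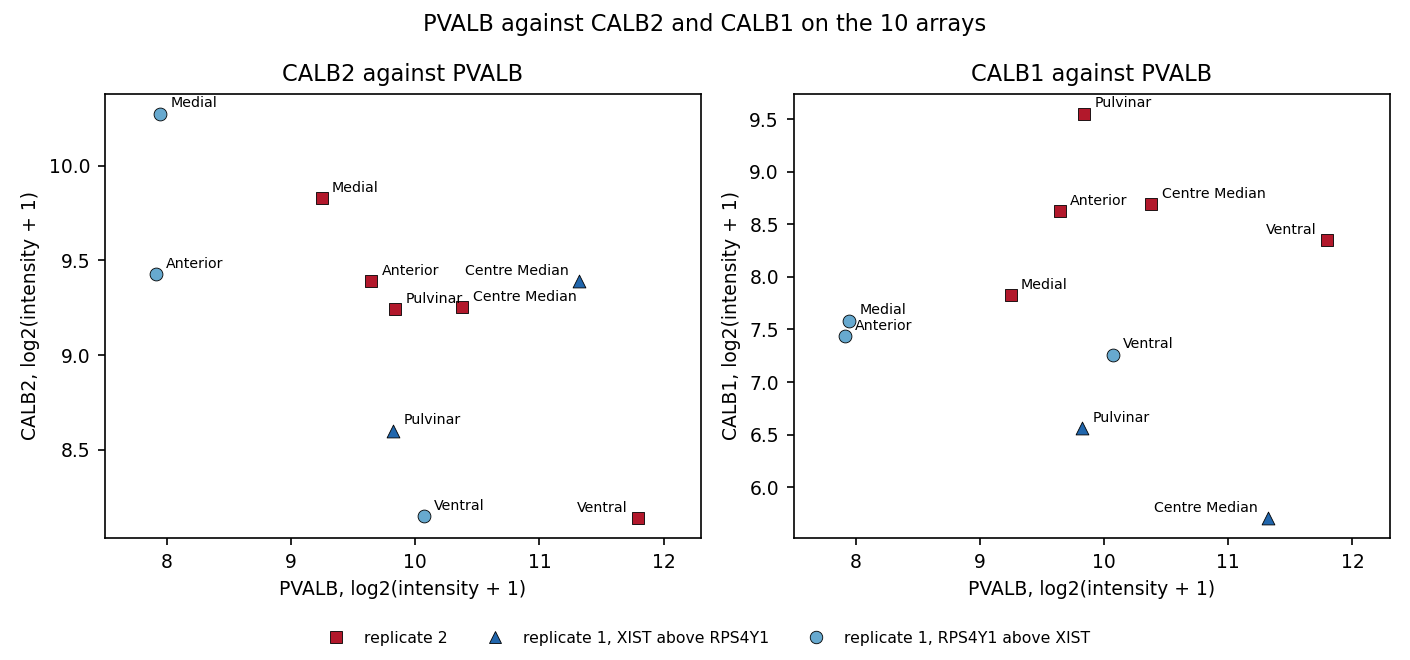
CALB2 (left) and CALB1, 205626_s_at (right), against PVALB on the 10 arrays, all as log2(intensity + 1); symbols give the replicate number and the part of replicate 1. CALB2 falls as PVALB rises from Medial to Ventral Thalamus, and CALB1 is lowest on the replicate 1 arrays of Centre Median and Pulvinar.

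Across the 10 arrays, with the mean of each replicate number subtracted, PVALB correlated with CALB2 at -0.67 and with the CALB1 probe sets 205626_s_at and 205625_s_at at -0.56 and -0.54. On the values as they stand, with no mean subtracted, these were -0.63, -0.06 and -0.24. These are descriptions over arrays that share their nuclei. The PVALB and CALB1 relation was not steady: over the 5 replicate 1 arrays it was -0.87 for 205626_s_at and over the 5 replicate 2 arrays it was -0.0031. For PVALB and CALB2 the values were -0.52 in replicate 1 and -0.97 in replicate 2. CALB2 and CALB1 correlated at 0.07 and 0.09.

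Other genes of core relay neurons, from a list of 17 of which 13 were measured, lay higher in Ventral Thalamus in 12 of 13, with a median log2 difference from the other nuclei of 0.75 against -0.01 for all genes. Of all genes, 46.6% lay higher there. The list was chosen with earlier results of these data known, so its counts describe the pattern and do not test it. limma with the block called 6 of the 13 higher, where 0.257% of all probe sets were called higher. NEFH and NEFM, the heavy and medium neurofilament subunits of large axons, differed by 1.75 and 1.68, VAMP1, a synaptic vesicle protein of fast synapses, by 1.31, NEFL, the light neurofilament subunit, by 1.06, PPARGC1A, which coactivates mitochondrial genes, by 0.93, and ESRRG, a nuclear receptor, by 0.58 (adjusted p from 0.0068 to 0.0481). After quantile normalisation, 4 of the 13 were called there. The 13 summed to 11039 and 22402 intensity units in Ventral Thalamus replicates 1 and 2, against 5944 to 8856 in the other nuclei. Their mean log2 was 8.61 and 9.62 there, against 7.87 to 8.65 elsewhere. The list was not counted in the fit with the actin covariate. That fit called 8 of all probe sets in this comparison, against 74 with the block alone. In Medial Thalamus 1 of the 13 lay above 0, against 49.8% of all genes, with a median of -0.39, and 0 of the 13 were called by limma with the block. In Centre Median, where PVALB differed by 1.32, NEFH differed by -0.20 and NEFM by -0.07, and none of the 3 was called with the block.

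Genes of matrix and midline neurons, 10 measured of 12, lay higher in Medial Thalamus in 10 of 10, with a median of 0.41 against 0.00 for all genes, although 0 were called there by limma with the block. Of all genes, 49.8% lay higher there, and this list too was chosen with earlier results of these data known. PENK, the enkephalin precursor, was called lower in Ventral Thalamus, by -0.75 (adjusted p = 0.0267, 0.0765% called lower), a call lost after quantile normalisation. CBLN1, a secreted synapse organiser, was called higher in Centre Median, by 1.82 (0.063% called higher), and NPTX2, a synaptic pentraxin, lower, by -1.08 (0.018% called lower), each at an adjusted p = 0.00285. Of 42 listed EF-hand relatives of the 3 genes, which include calcium sensors and S100 proteins, 36 were measured. Of these, 0 were called in any nucleus or across nuclei by limma with the block. At most 0.333% of all probe sets were called in these tests, so a list of 36 would seldom hold a call. NCALD came nearest, by -0.61 in Ventral Thalamus (adjusted p = 0.0553 by limma with the block). The median differences of the list lay between -0.06 and 0.06.

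Markers of other cells in the punches moved with some of these differences. In Ventral Thalamus the 8 measured oligodendrocyte markers summed to 15878 and 19272 intensity units, against 7952 to 15698 elsewhere. MAG, CNP and TF, 3 of the 8, were called higher there, by 0.86, 0.87 and 0.79, where 0.257% of all probe sets were called higher. After quantile normalisation 2 of the 8 were called. The marker lists were not counted in the fit with the actin covariate. GFAP, the filament protein of astrocytes, was called lower in Ventral Thalamus by -1.11, where 0.0765% of all probe sets were called lower. The 8 astrocyte markers summed there to 7048 and 9456 against 5842 to 13930. Of 12 measured markers of GABA neurons and the reticular nucleus, 1 was called, GAD1, the GABA-synthesising enzyme, which was lower in Medial Thalamus by -1.06 (adjusted p = 0.033, 0.0585% called lower). That list summed to 2275 and 2209 in Medial Thalamus against 2629 to 3592 in the other nuclei. The reticular regulators SIX3 and ISL1 had means of 6.58 to 6.76 and 4.85 to 4.99 and were called in no nucleus against the rest. Neither the 5 choroid plexus, 6 striatal, 5 habenular and 4 cortical markers nor the 7 thalamic neuron markers had a call by limma with the block, other than SHOX2, a homeobox gene, which was higher in Ventral Thalamus by 0.76 (adjusted p = 0.0481). The calls of GFAP, GAD1 and SHOX2 were lost after quantile normalisation. The part of these markers in the differences of the 3 genes was not tested.

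The genes whose pattern was most like that of each member were sought among the 99 genes whose 5 nucleus means spanned at least 1 log2 unit, by Pearson correlation over the 10 arrays after the mean of each replicate number was subtracted. For PVALB these were SPP1, the secreted phosphoprotein osteopontin (0.93), MICAL2, an actin regulator (0.92), PLS3, the actin-bundling plastin (0.92), SCN1A, a sodium channel of fast-firing neurons (0.91), and SCG3, a secretory granule protein (0.91). SPP1 had means of 10.38, 10.20, 10.08, 9.32 and 8.90 in Ventral Thalamus, Centre Median, Pulvinar, Anterior Thalamus and Medial Thalamus, the same order as PVALB, and SCN1A had its highest mean, 8.22, in Ventral Thalamus and its lowest, 6.64, in Medial Thalamus. SPP1 and SCN1A also stand in the core list. Most opposed to PVALB were TOX3 (-0.91), LY6H (-0.80) and CA10 (-0.79). None of these 8 genes passed the blocked F test of limma, whose adjusted p was lowest for SCN1A at 0.0543.

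For CALB2 the most alike were WIF1, a secreted Wnt inhibitor (0.91), CD24, a surface glycoprotein of neurons (0.89), LOC728392 (0.84), HPCAL4, a neuronal calcium sensor of the EF-hand family (0.84), and SCN3A, a sodium channel (0.82). CD24 had means of 6.89, 7.76, 6.92, 7.45 and 8.07 in the same order of nuclei. Most opposed were NACC2 (-0.95), PPARGC1A (-0.94) and STK39, a kinase of ion cotransporters (-0.93), with STK39 means of 9.73, 8.54, 9.07, 8.71 and 8.43. LOC728392 (adjusted p = 0.0278) and STK39 (0.00325) passed the blocked F test.

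For CALB1 the likeness was weaker beyond the first gene: CRH, the stress peptide corticotropin-releasing hormone (0.82), then FKBP1B (0.66), IFT57 (0.65), TOX3 (0.61) and SST, the peptide somatostatin (0.56). CRH had means of 10.62, 9.66, 10.72, 10.74 and 10.55, lowest in Centre Median as CALB1 was. Most opposed were RYR2, a calcium release channel (-0.81), XIST (-0.65) and PLS3 (-0.63), and none of these 8 genes passed the blocked F test. The split within replicate 1 remains after the mean of each replicate number is subtracted. On the values with no mean subtracted, RYR2, XIST and PLS3 correlated with CALB1 at 0.12, 0.42 and 0.36, so the opposed direction of all 3 turned. CRH, FKBP1B, IFT57 and TOX3 were then at 0.24, 0.18, 0.44 and 0.83, and SST turned to -0.11. For the genes named beside PVALB and CALB2 no sign turned, though the opposed ones weakened to as little as -0.26 for CA10 and -0.38 for NACC2. TOX3 and PLS3 appeared for PVALB and CALB1 on opposite sides.

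**Figure D5:**
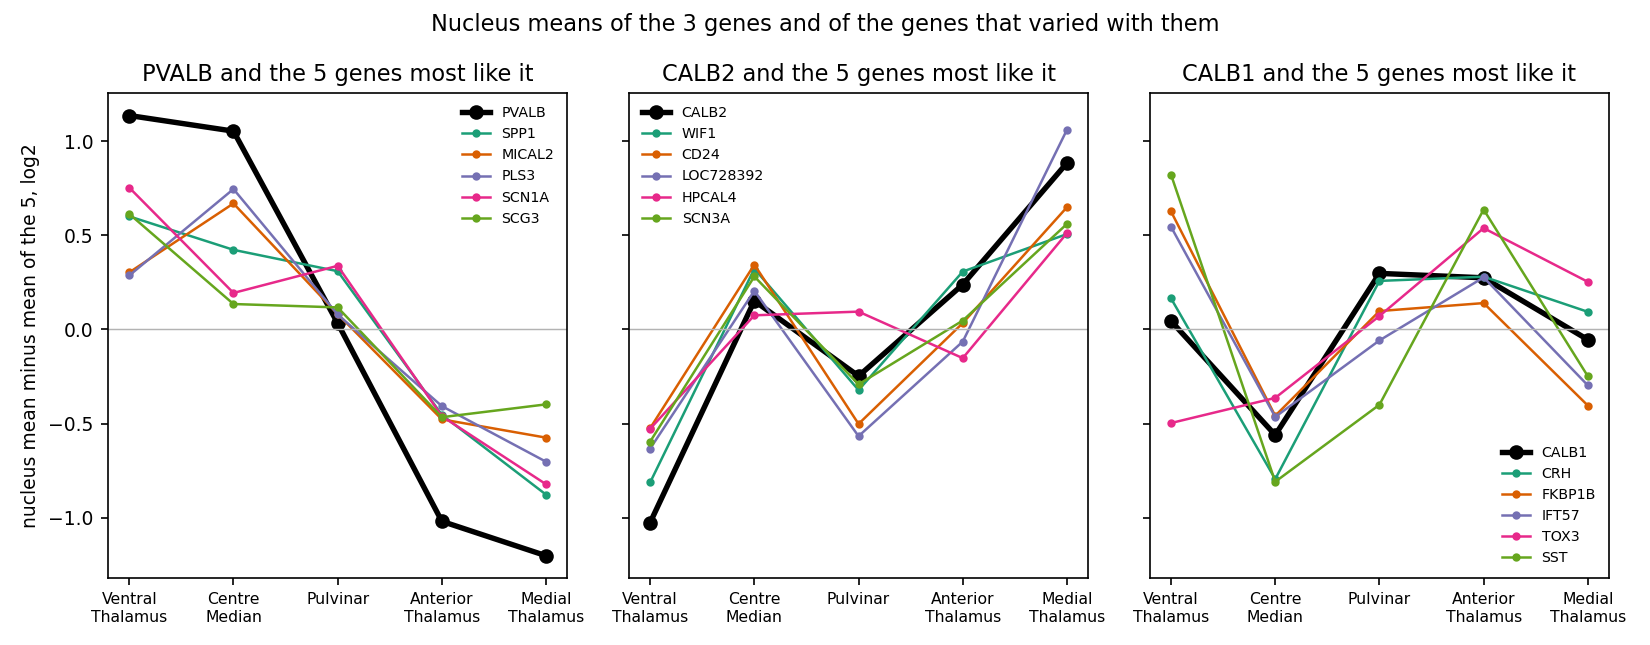
Nucleus means (n = 2 arrays) minus the mean of the 5 nuclei, in log2 units, for each member (black) and the 5 genes most like it over the 10 arrays. The genes beside PVALB descend from Ventral Thalamus or Centre Median to the last 2 nuclei, those beside CALB2 peak in Medial Thalamus, and the lines beside CALB1 have a low point in Centre Median except TOX3, which is lowest in Ventral Thalamus.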

How the data were processed

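The authors deposited normalized intensity values per probe set for 10 arrays, with RMA named per the submitters' processing notes and its version not given in the sources used here. Whether all arrays were normalised together is not stated; 2 arrays of one replicate number shared 1288 to 1401 identical values, and 2 arrays of different replicate numbers 1248 to 1401. No detection calls or depth apply to these arrays, and their number limits the precision. The values were taken as log2(intensity + 1), with a pseudocount of 1 and no filter on low values; 68 control probe sets were left out, and 22215 were tested. limma 3.58.1 in R 4.3.3 fitted 1 coefficient per nucleus (eBayes with a variance trend, 5 residual degrees of freedom), and Benjamini-Hochberg adjustment covered all probe sets within each comparison: an F test, 5 comparisons of a nucleus with the mean of the other 4, which are not independent, and 10 pairs. A call is an adjusted p under 0.05.

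A second fit added the replicate number as a block (4 residual degrees of freedom). The choice of this block comes from the values: all 10 correlations of the change between replicate numbers, given with the results, exceed 0.1. The fits were tested on simulated data with independent noise and a shift between replicate numbers. The simulation held no split within replicate 1 and no actin gradient, so it does not cover those features. Probe sets of highest mean stood for genes in lists and within-array differences. The members and lists were chosen with earlier results of these data known. The genes named were all 4 member probe sets, the 5 genes most and 3 least like each member, called list members and defining markers. Tried alternatives were the blocks, an actin covariate, pseudocounts, a filter on low values, quantile normalisation, 1 probe set per gene, no variance trend and each array left out. Figures were drawn with Python 3.11.15 and matplotlib 3.10.9.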

Additional observations from a re-analysis of the deposited data

Results flagged for a closer look

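The calbindin differences from the rest had opposite signs in the 2 replicate sets in all 5 nuclei for 205625_s_at and in 4 of 5 for 205626_s_at, the exception being Anterior Thalamus. Each set had 1 array of a nucleus, so the disagreement was not tested. The differences that were over 0.5 log2 units in both sets are given here. In Medial Thalamus, 205626_s_at lay 0.84 log2 units above the other 4 nuclei in replicate 1 and differed by -0.98 in replicate 2. The other probe set, 205625_s_at, differed by 1.00 in replicate 1 and -1.08 in replicate 2. In Pulvinar, 205625_s_at differed by -0.54 in replicate 1 and 1.22 in replicate 2. Both probe sets read the same arrays, so they are not separate evidence.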

How the results depend on the processing

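Without a block, limma called 0 members under each alternative, leave-one-out fits included. The replicate block gave 2 calls against the rest and 2 among pairs and CALB2 at an F test adjusted p = 0.0111, and it changed no other call of the members. Against the rest the calls were 2 in every further blocked setting except 1 without a variance trend, 3 with 3 levels and 0 with the actin covariate. Among pairs they were 3 after quantile normalisation within sets, with 1 probe set per gene or with the filter on low values, 2 with a pseudocount of 16, 1 without a variance trend, 6 with 3 levels and 0 with the actin covariate. The F test adjusted p of CALB2 in these settings was 0.00766 (quantile), 0.00717 (1 probe set per gene), 0.0144 (filter), 0.014 (pseudocount), 0.0432 (no trend), 0.00443 (3 levels) and, losing the call, 0.172 (actin covariate). That of PVALB was 0.00136 with 3 levels and 0.223 with the actin covariate. The pseudocount, filter and trend in blocked fits were added after seeing the data. With 1 array left out, without and with the replicate block, the F test adjusted p ranged from 0.0036 to 1.00 for CALB2 and 0.0187 to 1.00 for PVALB, and the calls from 0 to 3 against the rest and 0 to 5 among pairs. The span of PVALB minus CALB1 ranged from 2.38 to 4.87, the highest without Centre Median replicate 2.

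Directions that turned belonged to differences that were not called. With 3 levels these were PVALB in Pulvinar (-0.73), CALB2 in Centre Median minus Anterior Thalamus (0.12), 205625_s_at in Ventral Thalamus (-0.51), Centre Median (0.20) and Anterior Thalamus (-0.28), and 205626_s_at in the same nuclei (-0.48, 0.10 and -0.19). After quantile normalisation, Medial Thalamus turned to 0.0245 in 205625_s_at and 0.0049 in 205626_s_at. With the actin covariate, PVALB in Ventral Thalamus minus Centre Median was -0.20. With 1 array left out, 205625_s_at ranged from -0.22 to 0.36 in Ventral Thalamus, -1.82 to 0.48 in Centre Median, -0.83 to 1.51 in Pulvinar, -0.17 to 0.77 in Anterior Thalamus and -1.08 to 1.00 in Medial Thalamus. For 205626_s_at the ranges were -0.49 to 0.60, -2.19 to 0.79, -1.12 to 1.87, -0.25 to 0.94 and -0.98 to 0.84. CALB2 in Pulvinar ranged from -0.71 to 0.0889. PVALB ranged from -0.43 to 0.51 in Pulvinar, -0.99 to 1.15 in Ventral Thalamus minus Centre Median, -0.049 to 2.09 in Centre Median minus Pulvinar and -0.68 to 1.05 in Anterior minus Medial Thalamus. The causes were not tested.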
